A study of Mus musculus with 12 samples.

Results

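The Slc25 genes encode the mitochondrial carrier family, small membrane proteins that mostly sit in the inner mitochondrial membrane. The members described here are the protein-coding genes of the deposited table whose symbol is Slc25a followed by a number, leaving out Slc25a1, Slc25a15 and Slc25a20. That left 44 genes of the 54532 in the table. They were measured by bulk sequencing of poly(A) RNA of liver from mice labelled as Apoe knockout, a model of high blood cholesterol made by disrupting the apolipoprotein E gene. One group received Rspo2 by AAV, a viral vector that carries a gene into cells, and the control group received Gfp by AAV. Both groups shared the Apoe knockout and the liver as tissue. There were 6 libraries per group, numbered 1, 2, 4, 5, 6 and 7 for Rspo2-AAV and 1 to 6 for control. The labels used here state no age, sex, vector dose, promoter or time after injection, and they do not say that each library is a separate animal. The p-values therefore measure the spread between these libraries. R-spondin 2, the product of Rspo2, strengthens Wnt/beta-catenin signalling, and the series title names steatosis, the build-up of fat in the liver, together with AMPK and ACC.

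Carriers move metabolites, nucleotides and cofactors across a membrane that is otherwise closed to them. In liver they link the cytosol with ATP synthesis, gluconeogenesis, the urea cycle, amino acid breakdown and the making of haem and iron-sulphur clusters. Several carriers come as close paralogues, of which a tissue usually favours one. RNA levels do not measure how much carrier protein is present or how fast it works. In bulk tissue, fewer cells of a type and less RNA per cell cannot be told apart.

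A single carrier gene of 37 tested was called lower in Rspo2-AAV livers, against 2.65% of all tested genes. It was among the 3 most abundant members. A member that was not called is not thereby shown to be unchanged. Slc25a47, a carrier gene found mainly in liver, fell by 1.94 on the log2 scale, while none of the other 36 tested members passed the test. The chromosome 12 neighbour of Slc25a47 is another member, Slc25a29, and the RefSeq promoter windows of both are shown for comparison (GRCm38.p6, 250 bases before to 50 after each RefSeq start). Beside them stand the windows of Slc25a5, the most abundant member, and of Slc25a28, the member nearest to the threshold without passing it. Capitals mark the letters TATNTAAG, a TATA-like run, in Slc25a47 and Slc25a5, and the letters ATCAAAG, a TCF/LEF motif read on both strands, in Slc25a28. The window of Slc25a29 held none of the motifs searched.
Slc25a47 (plus strand, chr12:108850879-108851178): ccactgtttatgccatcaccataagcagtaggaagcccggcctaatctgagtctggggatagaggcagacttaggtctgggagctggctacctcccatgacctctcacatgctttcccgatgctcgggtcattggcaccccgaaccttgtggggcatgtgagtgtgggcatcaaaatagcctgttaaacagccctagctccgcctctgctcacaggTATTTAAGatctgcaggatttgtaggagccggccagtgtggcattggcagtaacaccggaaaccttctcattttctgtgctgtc
Slc25a29 (minus strand, chr12:108835827-108836126): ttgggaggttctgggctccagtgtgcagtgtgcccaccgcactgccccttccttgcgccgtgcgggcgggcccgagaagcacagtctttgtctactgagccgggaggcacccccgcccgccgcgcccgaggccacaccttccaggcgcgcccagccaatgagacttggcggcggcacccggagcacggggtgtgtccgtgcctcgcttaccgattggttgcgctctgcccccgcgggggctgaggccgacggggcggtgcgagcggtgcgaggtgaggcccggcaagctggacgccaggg
Slc25a5 (plus strand, chrX:36795347-36795646): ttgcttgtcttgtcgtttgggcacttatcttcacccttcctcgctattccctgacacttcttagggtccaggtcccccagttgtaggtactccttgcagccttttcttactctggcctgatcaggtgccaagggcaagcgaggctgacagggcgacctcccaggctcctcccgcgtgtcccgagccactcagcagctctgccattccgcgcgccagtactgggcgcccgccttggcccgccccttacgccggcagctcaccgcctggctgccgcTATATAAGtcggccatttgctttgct
Slc25a28 (minus strand, chr19:43674832-43675131): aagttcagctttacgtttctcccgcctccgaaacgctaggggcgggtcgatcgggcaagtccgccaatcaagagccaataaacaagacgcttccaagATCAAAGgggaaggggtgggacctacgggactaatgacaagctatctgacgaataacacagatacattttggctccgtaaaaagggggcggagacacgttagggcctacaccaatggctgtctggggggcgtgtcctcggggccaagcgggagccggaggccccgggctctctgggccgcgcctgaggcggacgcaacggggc

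The RefSeq start of Slc25a47 lies 15083 bases inside the gene as deposited, whose own first base is separated from Slc25a29 by 162 bases, with the genes on opposite strands. In the Slc25a47 window the TATA-like run began 34 bases before the RefSeq start, which is 15049 bases after the first base of the deposited gene. In that of Slc25a5 it began 24 bases after the RefSeq start, which is 30 bases before the first base of the deposited gene. The windows differed in composition. GC content was 53.3% with 7 CG pairs for Slc25a47, 72.3% with 32 for Slc25a29, 61% with 18 for Slc25a5 and 60% with 24 for Slc25a28. Windows were found for 33 of the 44 members, 42 in all since some genes have several. The TCF/LEF letters stood in 7.14% of the members' windows (3, in Slc25a22, Slc25a28 and Slc25a43), against 3.73% of all 32851 windows. The letters TCACNCCAC of a sterol response element, read on both strands, stood in 2.38% (1, in Slc25a18) against 1.24%. The letters TNAAGGTCA of an estrogen-related receptor element, read on both strands, stood in 0 of the members' windows against 1.28% of all windows. The TATA-like run, read on the gene's strand and chosen after the windows were seen, stood in 4.76% of the members' windows (2) against 2.04% of all. None of these motifs overlapped another in the windows shown. A match is a run of letters, not a binding site.

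The libraries held 14295644 to 22195576 reads, recovered from the deposited FPKM (fragments per kilobase of gene length, scaled for library depth). Rspo2 stood at 49.9 to 573 FPKM in the Rspo2-AAV libraries, with a median of 326 FPKM, and had no read in any control library (exact two-sided permutation p = 0.00216, the smallest this design can give). Apoe itself was listed at 43.1 to 101 FPKM in Rspo2-AAV and 38.8 to 149 FPKM in control libraries, and values per gene cannot be resolved to the disrupted part, so they do not check the genotype. Some libraries stood apart. Xist, the RNA that coats an inactive X, reached 28.0 FPKM in Rspo2-AAV 1, 5.57 FPKM in Rspo2-AAV 2 and 42.0 FPKM in control 3, and stayed below 0.02 FPKM in the other 9. The libraries with Xist were unevenly spread over the groups. The part of sex in the changes given below, including those called only without Rspo2-AAV 1 or control 3, was not tested. Mitochondrially encoded transcripts took 10.5% of reads in Rspo2-AAV 2, against 3.53% to 5.89% in the other 11 libraries. Across the tested genes, the log2 values of Rspo2-AAV 2 had Spearman correlations of 0.886 to 0.906 with Rspo2-AAV 4 to 7, 0.928 with Rspo2-AAV 1 and 0.903 to 0.925 with the controls. Rspo2-AAV 1 had its highest correlation with control 3 (0.947). With the other Rspo2-AAV libraries it had 0.910 to 0.928, and with the other controls 0.898 to 0.919. The reason for this likeness was not tested. Whether Rspo2-AAV 2 holds RNA of another library was not tested, and the change of Slc25a47 is given below with and without it. Rspo2-AAV 4 held 5.80% of its reads in 10 pancreatic acinar markers, and Rspo2-AAV 5 held 0.520%. Erythroid markers summed to 229 to 1363 FPKM in Rspo2-AAV and 97.4 to 354 FPKM in control libraries, and stellate cell markers to 15.5 to 27.4 FPKM and 36.0 to 46.6 FPKM. Hepatocyte markers were high throughout, at 18052 to 40512 FPKM in Rspo2-AAV and 22421 to 45993 FPKM in control libraries.

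Across the family, 0 of the 37 tested members were called higher and 1 was called lower in Rspo2-AAV livers. Over all 13447 tested genes, 2.55% were called higher, 2.65% lower and 5.2% either way, so the family's share of calls was near the background. A call means an adjusted p under 0.05 from limma, fitted to log2(FPKM + 0.5) across every gene with a mean of at least 0.5 FPKM. On that scale changes of low genes are understated. At an unadjusted limma p under 0.05 stood 11 of the 37 members, 6 higher and 5 lower, against 2891 of the 13447 tested genes (21.5%). Slc25a35 is among those higher and passed the filter through its Rspo2-AAV values, so nothing is drawn from this count. limma-voom on the recovered reads also called 0 members higher and 1 lower. The median log2 change of the 37 members was 0.06, against 0.00 for all tested genes (0.0025 before rounding). The interquartile range of the members ran from -0.16 to 0.19, and that of all genes from -0.18 to 0.19. For 31 members the 95% interval of the change lay within 1 log2 unit of no change on both sides. None of the 37 members had groups that did not overlap, against 3.24% of all tested genes (1.62% with every Rspo2-AAV library above every control and 1.62% below).

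**Figure D1:**
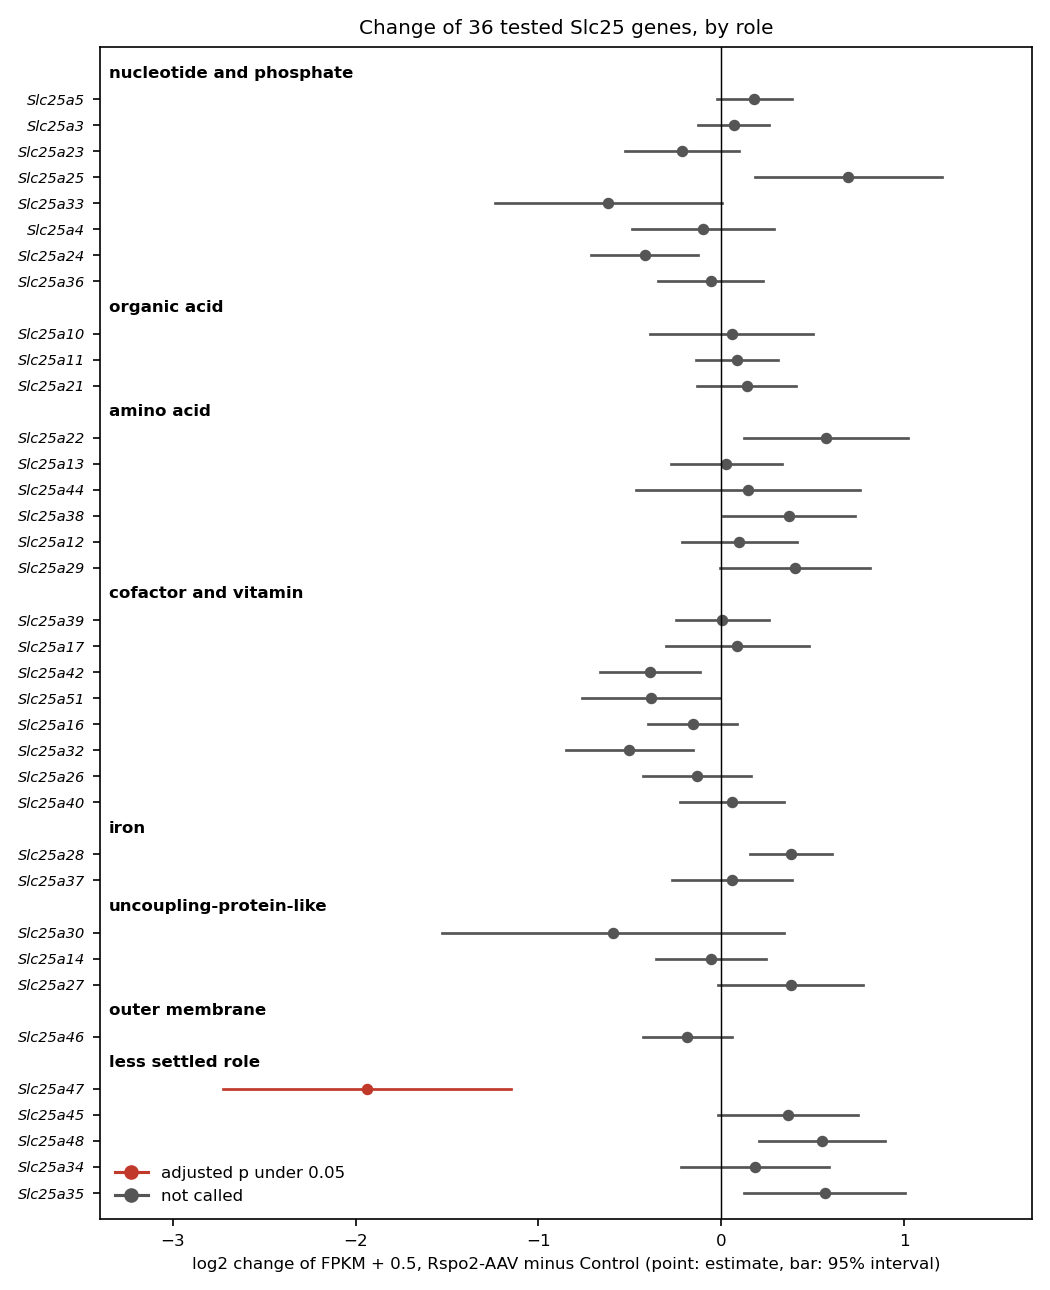
Log2 change of FPKM + 0.5 (Rspo2-AAV minus control) of 36 of the tested Slc25 genes, grouped by role and ordered by level within a role; points are limma estimates and bars 95% intervals (6 libraries per group). Slc25a47 (red, -1.94) stands apart from the others, which lie between -0.62 and 0.70.

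Slc25a47 (ENSMUSG00000048856, GRCm38 chromosome 12, 108836046 to 108856815, plus strand) had 29.2, 45.8, 45.9, 47.4, 71.9 and 171.8 FPKM in Rspo2-AAV libraries 5, 1, 7, 6, 4 and 2. In control libraries 5, 3, 6, 4, 1 and 2 it had 133, 184, 212, 229, 311 and 325 FPKM. Of the Rspo2-AAV libraries, 5 lay below every control and number 2 lay among the controls, so the groups overlapped through that library. The means were 68.7 ± 52.3 FPKM in Rspo2-AAV and 232 ± 74.2 FPKM in control livers (SD, n = 6 each). The log2 change was -1.94 ± 0.36 (SE; 95% interval -2.73 to -1.15; adjusted p = 0.00967), a decrease of 73.9%. Reads per library ran from 1328 to 7877 in Rspo2-AAV and from 5636 to 17842 in control libraries, so counting error was small.

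The call of Slc25a47 was kept in all 23 alternative fits, with log2 changes from -2.30 to -1.75 and adjusted p up to 0.0492. The smallest margin came without Rspo2-AAV 4 and 5, the libraries with acinar reads (-1.78, adjusted p = 0.0492). Without Rspo2-AAV 2 the change was -2.25 (adjusted p = 0.000655), and without the 3 libraries with Xist it was -2.30 (adjusted p = 0.00149). Within numbers 4 to 7 it was -1.996 (adjusted p = 0.00843). Rspo2-AAV 2, with the highest Slc25a47, also had the lowest Rspo2 of its group at 49.9 FPKM, and Rspo2-AAV 5, with the lowest Slc25a47, had the highest Rspo2 at 573 FPKM. Between them the order did not follow Rspo2: number 1, at 122 FPKM of Rspo2, had 45.8 FPKM of Slc25a47, and number 4, at 386 FPKM, had 71.9 FPKM. The part of the Rspo2 level, of the mitochondrial reads of number 2 or of its likeness to the controls in these values was not tested, and the 171.8 FPKM of that library is read with this doubt. Hepatocyte markers summed to a median of 22140 FPKM in Rspo2-AAV and 29242 FPKM in control libraries, and their part in the level of Slc25a47 was not tested.

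Slc25a29, which carries basic amino acids and lies beside the deposited Slc25a47 gene on the other strand, was not called. It had 1.49 to 2.88 FPKM in Rspo2-AAV libraries (median 2.05) and 0.974 to 2.49 FPKM in control libraries (median 1.34). Its log2 change was 0.40 ± 0.19 (SE, limma adjusted p = 0.239) and the groups overlapped. The level of Slc25a47 over that of Slc25a29, on the FPKM scale, was 10.2 to 78.1 in Rspo2-AAV and 125 to 206 in control libraries, without overlap between the groups. That ratio was chosen after its values were seen, and in every other carrier ratio calculated the groups overlapped. Slc25a29 had only 36 to 125 reads per library. No share over all gene pairs was taken, so nothing is drawn from this separation.

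**Figure D2:**
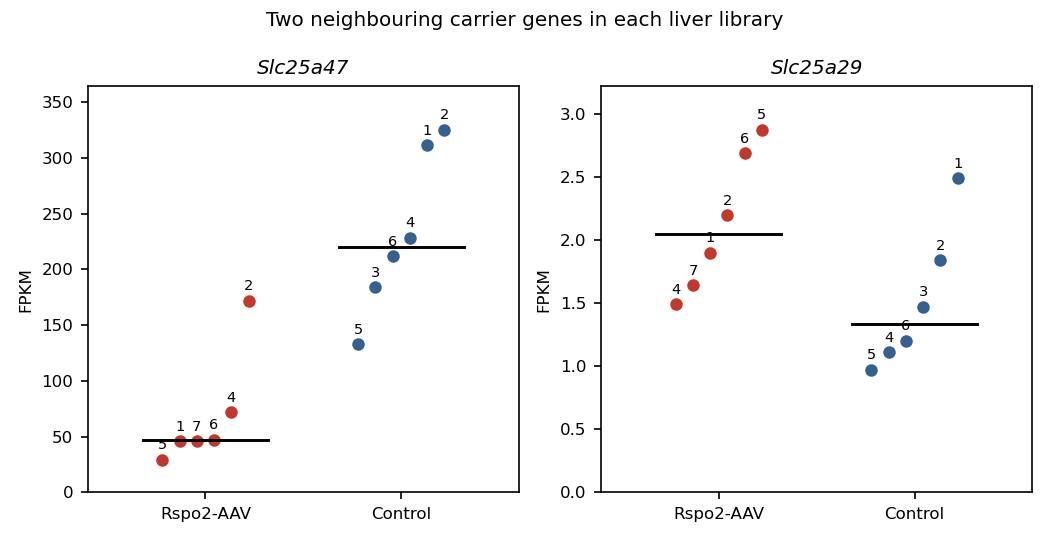
FPKM of Slc25a47 and of Slc25a29, its neighbour on the other strand, in each library (points, labelled by library number; bars are medians; 6 libraries per group). Rspo2-AAV 2, at 171.8 FPKM, is the only Rspo2-AAV library within the control range of Slc25a47.

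The carriers of nucleotides and phosphate supply ATP synthase and export its product. Of 10 such genes, 8 were tested, with 0 called higher and 0 lower and a median log2 change of -0.08. Slc25a5 encodes the liver's main ADP/ATP exchanger and was the most abundant member, at 247 to 296 FPKM in Rspo2-AAV libraries (median 259) and 213 to 255 FPKM in control libraries (median 230.4). Its log2 change was 0.18 ± 0.10 (SE, 95% interval -0.02 to 0.39, limma adjusted p = 0.295), and only control 1, at 255 FPKM, reached into the Rspo2-AAV range. Its paralogue Slc25a4, the heart and muscle form, stood at 1.81 to 4.08 FPKM in Rspo2-AAV and 2.52 to 4.53 FPKM in control libraries. The level of Slc25a5 over that of Slc25a4, per length, was 61.1 to 139.6 in Rspo2-AAV and 51.2 to 91.4 in control livers. Reads of the processed pseudogene Slc25a5-ps stayed below 0.07 FPKM, but other near-identical copies could share reads with Slc25a5. Slc25a31, the germ cell exchanger, reached 0.0931 FPKM in Rspo2-AAV and 0.177 FPKM in control libraries and was not tested.

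Slc25a3, which imports phosphate for ATP synthesis, was among the steadiest members. It had 61.3 to 67.1 FPKM in Rspo2-AAV libraries (median 65.5) and 55.9 to 72.7 FPKM in control libraries (median 60.4), with a log2 change of 0.07 ± 0.09 (SE, limma adjusted p = 0.711). The ATP-Mg/phosphate carriers, which adjust the matrix adenine nucleotide pool in response to calcium, had unlike values. Slc25a25 stood at 25.6 to 69.1 FPKM in Rspo2-AAV libraries (median 48.9) and 20.8 to 45.2 FPKM in control libraries (median 26.9). Of its Rspo2-AAV values, 5 lay above every control and number 1 lay among them. The log2 change was 0.70 ± 0.24 (SE, 95% interval 0.18 to 1.21, limma adjusted p = 0.110), and without Rspo2-AAV 1 it was called (0.86, adjusted p = 0.0279), as it was without the 3 libraries with Xist (0.83, adjusted p = 0.0272). Slc25a23 had 38.2 to 50.5 FPKM in Rspo2-AAV libraries (median 45.4) and 40.8 to 68.4 FPKM in control libraries (median 51.7), a log2 change of -0.21 ± 0.14 (SE, adjusted p = 0.426). Crb3 overlaps it on the other strand, and whether the counting kept their reads apart is not given in the sources used here. The third of them, Slc25a24, was at 0.455 to 0.855 FPKM in Rspo2-AAV and 0.770 to 1.404 FPKM in control libraries (log2 change -0.42 ± 0.13, adjusted p = 0.0932), and Slc25a41 had no read in any library. Slc25a33 and Slc25a36 carry pyrimidine nucleotides. Slc25a33 had 5.02 to 15.2 FPKM in Rspo2-AAV and 6.88 to 17.5 FPKM in control libraries (log2 change -0.62 ± 0.29, adjusted p = 0.234), and Slc25a36 stayed at or below 0.982 FPKM.

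**Figure D3:**
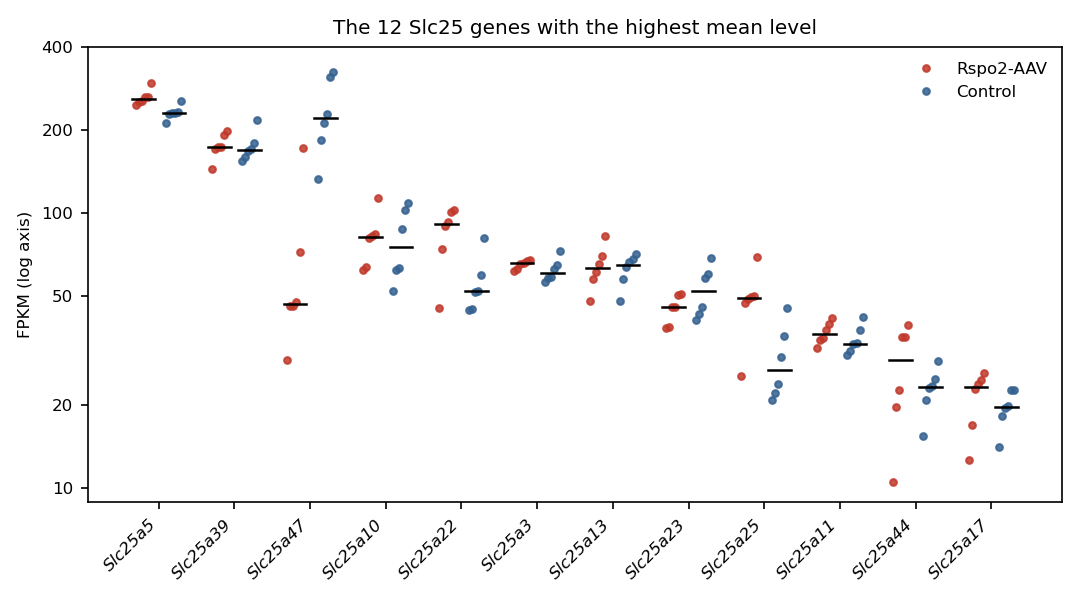
FPKM (log axis) of the 12 Slc25 genes with the highest mean, in each library (points) with group medians (bars), Rspo2-AAV left of control for each gene, 6 libraries per group. Only for Slc25a47 do 5 of the 6 Rspo2-AAV libraries lie below every control.

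The organic acid carriers exchange malate, oxoglutarate and related acids, and 0 of their 3 tested genes were called higher and 0 lower. Slc25a10, the dicarboxylate carrier, had 61.8 to 113 FPKM in Rspo2-AAV libraries (median 81.7) and 52.0 to 108 FPKM in control libraries, a log2 change of 0.06 ± 0.21 (SE, limma adjusted p = 0.909). Its controls fell into separate ranges by number, with 52.0 to 62.8 FPKM in numbers 1 to 3 and 87.2 to 108 FPKM in numbers 4 to 6. Within numbers 4 to 7 the change was -0.36 (adjusted p = 0.104), of the opposite sign. Slc25a11, the oxoglutarate/malate carrier of the malate-aspartate shuttle, had 32.3 to 41.6 FPKM in Rspo2-AAV libraries (median 36.2) and 30.4 to 41.7 FPKM in control libraries (median 33.4), a log2 change of 0.08 ± 0.10 (SE, adjusted p = 0.691). It overlaps Rnf167 on the other strand. Slc25a21, the oxoadipate carrier, had medians of 2.99 FPKM in Rspo2-AAV and 2.84 FPKM in control livers.

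Amino acid carriers had positive log2 changes in all 6 tested genes in the main fit, but 0 were called higher and 0 lower. The changes ran from 0.03 to 0.57, with a median of 0.26. The shared sign was not kept in every fit: with the replicate block Slc25a13 (-0.0423) and Slc25a44 (-0.00188) were negative. Slc25a22, a glutamate carrier, had 45.2 to 102 FPKM in Rspo2-AAV libraries (median 90.9) and 44.3 to 81.0 FPKM in control libraries (median 51.7). Rspo2-AAV 1 was as low as the lowest controls and control 3 was above Rspo2-AAV 4. The log2 change was 0.57 ± 0.21 (SE, 95% interval 0.12 to 1.02, limma adjusted p = 0.130). It was called without Rspo2-AAV 1 (0.74, adjusted p = 0.0213), within numbers 4 to 7 (0.82, adjusted p = 0.0128) and without the 3 libraries with Xist (0.86, adjusted p = 0.00282). Its paralogue Slc25a18 was too low to test, at or below 0.595 FPKM.

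The aspartate/glutamate carrier of liver, Slc25a13 (citrin), which serves the urea cycle and the malate-aspartate shuttle, had 47.7 to 82.2 FPKM in Rspo2-AAV libraries (median 63.0) and 47.8 to 70.7 FPKM in control libraries (median 64.7). Its log2 change was 0.03 ± 0.14 (SE, 95% interval -0.28 to 0.33, limma adjusted p = 0.937), and the sign turned in some of the alternative fits. Its paralogue Slc25a12 (aralar), the form of brain and muscle, had medians of 2.77 FPKM in Rspo2-AAV and 2.42 FPKM in control livers. The level of Slc25a13 over that of Slc25a12 was 19.7 to 25.9 in Rspo2-AAV and 16.9 to 36.2 in control libraries. Slc25a44, a carrier of branched-chain amino acids, had 10.5 to 39.1 FPKM in Rspo2-AAV libraries (median 29.05) and 15.4 to 28.9 FPKM in control libraries (median 23.3). Rspo2-AAV 5, 6 and 7 lay above every control and number 2 below every control, and the log2 change was 0.15 ± 0.28 (SE, adjusted p = 0.814). Slc25a38, which brings glycine in for haem synthesis, had 12.7 to 21.0 FPKM in Rspo2-AAV and 9.40 to 18.6 FPKM in control libraries (log2 change 0.37 ± 0.17, adjusted p = 0.219). Erythroid cells also use it, and the part of the erythroid transcripts given above in its level was not tested. Slc25a2, an ornithine carrier, stayed at or below 0.360 FPKM.

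Among carriers of cofactors and vitamins, 0 of 9 tested genes were called higher and 0 lower. Their log2 changes were negative in 6 and positive in 3, with a median of -0.13. Slc25a39, which imports glutathione, was the second most abundant member, at 145 to 198 FPKM in Rspo2-AAV libraries (median 173) and 154 to 217 FPKM in control libraries (median 169). The log2 change of Slc25a39 was 0.01 ± 0.12 (SE, 95% interval -0.25 to 0.26, limma adjusted p = 0.983). Slc25a40, its paralogue, was at 0.383 to 0.706 FPKM in Rspo2-AAV and 0.359 to 0.714 FPKM in control libraries. Slc25a17, a carrier of the peroxisomal membrane, had 12.6 to 26.1 FPKM in Rspo2-AAV libraries (median 23.3) and 14.1 to 22.8 FPKM in control libraries (median 19.7), a log2 change of 0.09 ± 0.18 (SE, adjusted p = 0.825).

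Slc25a42, which exchanges coenzyme A, had 14.7 to 21.0 FPKM in Rspo2-AAV libraries (median 17.1) and 17.5 to 27.1 FPKM in control libraries (median 23.2). The log2 change was -0.39 ± 0.13 (SE, limma adjusted p = 0.0967), and it was called without control 3 (-0.46, adjusted p = 0.0390). Slc25a16, also linked to coenzyme A, had medians of 13.8 FPKM in Rspo2-AAV and 15.8 FPKM in control livers (-0.16 ± 0.11, adjusted p = 0.456). Slc25a51, the NAD carrier, had 13.7 to 23.4 FPKM in Rspo2-AAV and 15.8 to 31.0 FPKM in control libraries (-0.38 ± 0.17, adjusted p = 0.225). Slc25a32, a carrier of folate or FAD, had 3.06 to 4.78 FPKM in Rspo2-AAV and 3.47 to 7.06 FPKM in control libraries (-0.50 ± 0.16, adjusted p = 0.0937). It was called without control 1 (-0.61, adjusted p = 0.0265) and within numbers 4 to 7 (-0.56, adjusted p = 0.0454). Slc25a26, the S-adenosylmethionine carrier, had 1.31 to 2.26 FPKM in Rspo2-AAV and 1.503 to 2.60 FPKM in control libraries (-0.13 ± 0.14, adjusted p = 0.627), and it overlaps Lrig1 on the other strand.

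The iron carriers feed haem and iron-sulphur cluster synthesis, and 0 of these 2 genes were called higher and 0 lower. Slc25a28 (mitoferrin 2) had 15.1 to 21.9 FPKM in Rspo2-AAV libraries (median 17.5) and 13.1 to 15.4 FPKM in control libraries (median 13.8). The groups overlapped only through Rspo2-AAV 5 and control 5. Its log2 change was 0.38 ± 0.10 (SE, 95% interval 0.16 to 0.61, limma adjusted p = 0.0510), the closest to the threshold among members not called. It was called without Rspo2-AAV 5 (0.44, adjusted p = 0.0429). Slc25a37 (mitoferrin 1), the form used by red cell precursors, had 6.47 to 10.2 FPKM in Rspo2-AAV and 5.57 to 10.3 FPKM in control libraries (log2 change 0.06 ± 0.15, adjusted p = 0.868). Erythroid markers summed to a median of 564 FPKM in Rspo2-AAV and 127 FPKM in control libraries, and their part in the mitoferrin levels was not tested.

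The uncoupling-protein-like members and Slc25a46, which acts in the outer membrane in mitochondrial shape, held 0 genes called higher and 0 lower among 4 tested. Slc25a30 had the widest interval of the tested members, at 3.88 to 19.3 FPKM in Rspo2-AAV and 6.99 to 31.5 FPKM in control libraries, with a log2 change of -0.59 and a 95% interval of -1.53 to 0.34 (limma adjusted p = 0.468). Slc25a14 stood at 0.523 to 1.08 FPKM in Rspo2-AAV and 0.613 to 1.11 FPKM in control libraries. Slc25a27 passed the filter, at a mean of 0.522 FPKM, through its Rspo2-AAV values, so no call of it is used. It had 0.506 to 0.761 FPKM in Rspo2-AAV libraries, and in controls 0.233 to 0.345 FPKM but for 1.04 FPKM in number 3. Slc25a46 had 6.46 to 8.79 FPKM in Rspo2-AAV and 6.94 to 10.5 FPKM in control libraries (log2 change -0.19 ± 0.11, adjusted p = 0.376).

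Beside Slc25a47, the members of less settled role included 4 tested genes with positive log2 changes and no call. Slc25a48 had 5.90 to 8.98 FPKM in Rspo2-AAV libraries (median 7.18) and 3.29 to 6.64 FPKM in control libraries (median 4.73). The log2 change of Slc25a48 was 0.55 ± 0.16 (SE, 95% interval 0.20 to 0.89, limma adjusted p = 0.0661). It was called without Rspo2-AAV 2 (0.60, adjusted p = 0.0489) and without control 4 (0.64, adjusted p = 0.0480). Slc25a35 was low, at 0.356 to 1.55 FPKM in Rspo2-AAV and 0.194 to 0.504 FPKM in control libraries (0.57 ± 0.20, adjusted p = 0.127), and passed the filter through its Rspo2-AAV values, so no call of it is used. Slc25a45 had medians of 17.4 FPKM in Rspo2-AAV and 13.4 FPKM in control livers (0.37 ± 0.18, adjusted p = 0.257), and Slc25a34 of 4.21 FPKM and 3.56 FPKM (0.19 ± 0.19, adjusted p = 0.616). Slc25a53 and Slc25a43 stayed below 0.5 FPKM in every library and Slc25a54 had no read.

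Which further members were called depended on the libraries fitted, and the share of all genes called moved as well. Within numbers 4 to 7, Slc25a22 was called higher and Slc25a47 and Slc25a32 lower, against 6.34% and 6.92% of all genes. Without control 3 and Rspo2-AAV 1 and 2, Slc25a22 and Slc25a25 were called higher and Slc25a47 and Slc25a42 lower, against 6% and 6.75% of all genes. Slc25a35, called in both of these fits, and Slc25a27, called in the second, are left out here because they passed the filter through the group where they are high. That subset keeps controls 1 and 2 but no Rspo2-AAV number under 4. With a term for numbers 1 to 3 against 4 to 7, Slc25a28 (0.39, adjusted p = 0.0482) and Slc25a48 (0.47, adjusted p = 0.0209) were called higher and Slc25a47 lower, against 3.09% and 3.38%. With a block for shared numbers, 0 members were called higher and Slc25a47 alone lower, against 1.08% and 1.13%.

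**Figure D4:**
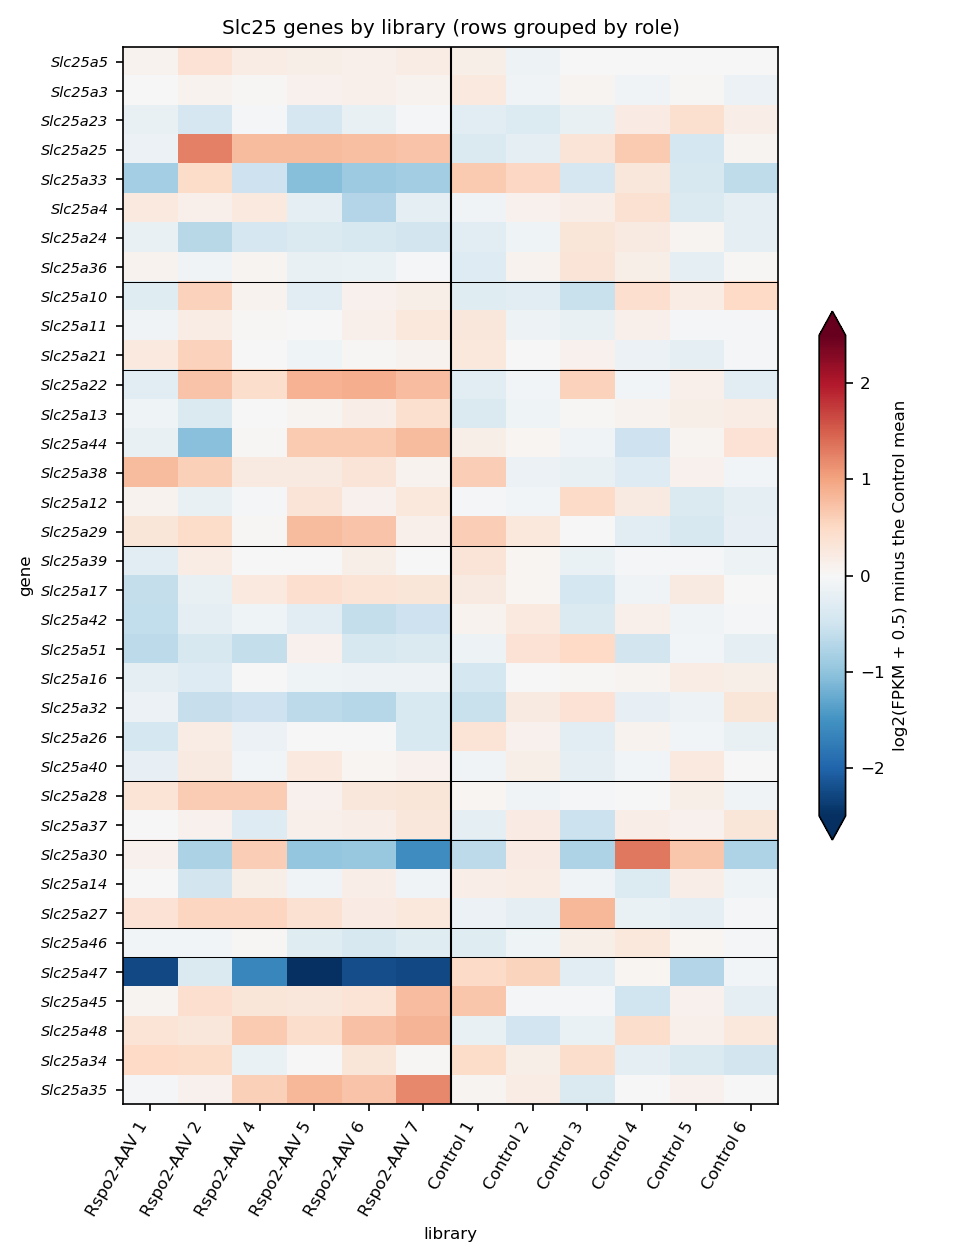
Log2(FPKM + 0.5) minus the control mean for 36 of the tested Slc25 genes (rows, grouped by role) in each library (columns, Rspo2-AAV left of control). The row of Slc25a47 is lowest in Rspo2-AAV 1, 4, 5, 6 and 7 and near the controls in Rspo2-AAV 2. In the rows of Slc25a22 and Slc25a25, Rspo2-AAV 1 is the lowest of the Rspo2-AAV libraries and lies among the controls.

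Of the 44 members, 13 averaged at least 20 FPKM, 18 lay between 1 and 20 FPKM, 6 between 0.5 and 1 FPKM, and 7 fell below the filter. Slc25a5, Slc25a39 and Slc25a47 led the family's summed FPKM. Slc25a5 made up 21.7% to 25.5% of that sum in Rspo2-AAV and 16.6% to 19.95% in control libraries, while Slc25a47 made up 2.66% to 12.8% and 11.5% to 25.4%. These shares are tied to each other, since the fall of Slc25a47 raises the share of the rest. Without Slc25a47 the members summed to 922 to 1167 FPKM in Rspo2-AAV libraries (median 1096) and 955 to 1047 FPKM in control libraries (median 1013), with overlap. In 5 of the 37 tested members, Slc25a13, Slc25a16, Slc25a48, Slc25a34 and Slc25a21, numbers 1 to 3 did not overlap numbers 4 to 7 in either group and differed the same way, against 3.87% of all tested genes. Scd1, a gene outside the family named after its values were seen, split far more widely by number. It stood at 331 to 541 FPKM in every library numbered 1 to 3, in both groups. In every library numbered 4 to 7 it stood at 2457 to 3662 FPKM. The number classes are not evenly spread over the groups, and their part in the changes of the members was not tested. The labels do not say what the numbers stand for.

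Other genes of mitochondrial transport were set beside the carriers in 8 lists, of which 44 genes were tested. Over all tested genes 2.55% were called higher and 2.65% lower. At those shares, 0 calls in a short list does not show that its genes were unchanged. In the 8 lists together limma called 0 genes higher and 1 lower, and the median log2 change was -0.01. The one that fell was Sfxn1, a sideroflexin that carries serine into mitochondria. It had 0.872 to 3.29 FPKM in Rspo2-AAV libraries (median 1.37) and 7.78 to 10.7 FPKM in control libraries (median 9.18), without overlap (log2 change -2.29 ± 0.21, adjusted p = 0.000180). The other 3 tested sideroflexins were not called. None of the 13 genes listed under carrier import was called in either direction. Beside the TIM22 route, which inserts Slc25 proteins into the inner membrane, the list holds general import genes such as Tomm40. The median log2 change of the 13 was 0.07. Timm8b, which had the highest level in FPKM, had 0.07, and Tomm40, named after its value was seen, had the largest change, 0.39. The 3 tested carriers not named Slc25 (Mtch1, 0.05), the pyruvate carrier (Mpc2, 0.24) and the outer membrane channels (Vdac1, 0.08) likewise had 0 called higher and 0 lower. The genes in brackets are those with the highest level in each list. Of 6 tested calcium uniporter genes, 0 were called higher and 0 lower; Smdt1, the most abundant, was the 1 with a positive log2 change (0.23), and the median was -0.06. Of 9 regulators of mitochondrial biogenesis, 0 were called higher and 0 lower, 5 had negative changes and the median was -0.07, while Esrra, the most abundant, had 0.27. Other regulators, named after their values were seen, were nearer to a call. Ppargc1b, a coactivator, had a log2 change of -0.65 (adjusted p = 0.0535) and was called in 3 of 23 alternatives, limma-voom among them. Ppargc1a, its paralogue, had 0.62 (adjusted p = 0.365) and was called in 4, all without control 3, such as 1.005 (adjusted p = 0.00342) with that library alone left out. Tfb2m, a mitochondrial transcription factor, had groups that did not overlap (-0.28, adjusted p = 0.0715).

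Of the malate-aspartate shuttle enzymes, which work with Slc25a11 and Slc25a13, 0 of 4 were called higher and 0 lower; Mdh1, the most abundant, had a log2 change of -0.05. Got1, the cytosolic aspartate aminotransferase, named after its values were seen, had 155 to 293 FPKM in Rspo2-AAV libraries (median 239) and 55.8 to 358 FPKM in control libraries (median 78.2). Its log2 change was 1.201 ± 0.39 (SE, limma adjusted p = 0.0946), and without control 3, which held the highest value, it was called (1.58, adjusted p = 0.00197). All 4 alternatives that called it left out control 3.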

How the data were processed

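Liver RNA was sequenced in 12 libraries (6 Rspo2-AAV, 6 control). The authors deposited FPKM for each gene and library. The notes of the submitters on processing name DESeq2 1.20.0, HISAT2 2.0.5, featureCounts 1.5.0-p3 and the build GRCm38 (mm10), without role or order; strand use in counting is not given in the sources used here. The deposited gene length served only to recover reads, and 100% of positive values came out whole within 0.01 reads. The FPKM library sizes equalled median-of-ratios size factors times a constant. Groups were compared on log2(FPKM + 0.5) with limma 3.58.1 (R 4.3.3, with trend and Benjamini-Hochberg adjustment) for the 13447 genes averaging 0.5 FPKM or more; it was tested on simulated data. All adjusted p-values come from limma. Intervals are for the mean log2 change between the groups. They rest on the spread between libraries and do not give the range of single libraries. Every called member and the 12 most abundant are described with lowest, median and highest values, the others by role. Members, lists and alternatives were chosen with earlier results of these data known, including the boundary between numbers 1 to 3 and 4 to 7. Subset fits used the genes passing the filter over all 12 libraries. Alternatives were pseudocounts of 0.1 and 1, no filter, a minimum mean of 1 FPKM, TPM scaling, limma-voom on the recovered reads, a block and a term for library numbers, subsets of libraries, and each library left out in turn. Genes outside the naming rule (every called member, the 12 most abundant, paralogue pairs, and for each other list the called or most abundant gene) are named as chosen after their values were seen. Promoter sequences are from RefSeq (GRCm38.p6). Protein sequences were not used here. The values of 1 tested member enter the counts and medians but are not reported here.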

Additional observations from a re-analysis of the deposited data

Results flagged for a closer look

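In 74 groups (37 tested members in each of the 2 vectors' libraries), 6 held a library whose gap to the next value was large for the range of its 6 libraries by Dixon's test. Chance alone gives such a gap in about 1 in 20 groups. Rspo2-AAV 2 had the highest Slc25a5, at 296 FPKM, and the highest Slc25a33, at 15.2 FPKM, in its group. Rspo2-AAV 5 had the highest Slc25a51 of its group, at 23.4 FPKM. Control 1 had the lowest Slc25a16 of its group, at 11.1 FPKM. Control 3 had the lowest Slc25a35, at 0.194 FPKM, and the highest Slc25a27, at 1.04 FPKM.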

How the results depend on the processing

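Slc25a47 kept its direction and its call in all 23 alternatives, with log2 changes of -2.25 to -1.75 when 1 library was left out. Members called higher numbered 0 as reported (2.55% of all genes), 1 with a minimum mean of 1 FPKM (319 of 11411 genes) and 2 with a term for the numbers (3.09%). They numbered 2 within numbers 4 to 7 (6.34% of all genes), 4 without the libraries with Xist (6% of all genes), and 0 to 2 with 1 library left out. Members called lower numbered 2 within numbers 4 to 7 (6.92% of all genes), 2 without the libraries with Xist (6.75%), and 1 to 2 with 1 library left out. Slc25a35 (in both subsets) and Slc25a27 (in the second, and also with control 3 alone left out) are among the members higher. Both had passed the filter through their Rspo2-AAV values. The cause was not tested. In the 8 lists (44 tested genes), the share of all genes called in each fit is given in brackets. Genes called higher numbered 2 with the replicate block (1.08%), 4 within numbers 4 to 7 (6.34%) and 2 without the libraries with Xist (6%). Those called lower numbered 2 with limma-voom (346 of 13447 genes) and 2 with the term for the numbers (3.38%). They numbered 2 within numbers 4 to 7 (6.92%) and 3 without the libraries with Xist (6.75%). With 1 library left out, 0 to 2 were called higher and 1 to 2 lower, and the calls over all genes moved too, as given below. The Rspo2 permutation p ran from 0.00216 to 0.00649 with 1 library left out.

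Same-numbered libraries correlated at -0.25, 0.05, 0.08, 0.09 and 0.16 in their deviations from the group means (numbers 1, 2, 4, 5 and 6). Differently numbered libraries were not set beside them, so whether the numbers pair the libraries was not tested. With the replicate block over those 5 numbers, 145 genes were called higher and 152 lower, against 343 and 356 without it, and Slc25a47 stayed called (-1.93, adjusted p = 0.0227). Over all genes, calls numbered 853 higher and 931 lower within numbers 4 to 7, 807 and 908 without the libraries with Xist, 197 and 183 with TPM scaling, 195 and 216 with no filter, 117 and 120 without Rspo2-AAV 4 and 5, and 162 to 421 and 170 to 492 with 1 library left out. TPM scaling moved the median of all genes to 0.0086.

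Uncalled members with a change near 0 turned sign. With the replicate block these were Slc25a39 (-0.0261), Slc25a10 (-0.0682), Slc25a13 (-0.0423), Slc25a44 (-0.00188), Slc25a17 (-0.0420), Slc25a37 (-0.0942), Slc25a36 (0.00460) and Slc25a40 (-0.00196). Within numbers 4 to 7 they were Slc25a10 (-0.36), Slc25a37 (-0.129) and Slc25a14 (0.125). Without the libraries with Xist they were Slc25a39 (-0.00737), Slc25a10 (-0.0903), Slc25a37 (-0.0433) and Slc25a14 (0.0166). Slc25a13 turned with the term for the numbers (-0.0293) and Slc25a17 without Rspo2-AAV 4 and 5 (-0.0336). With 1 library left out, ranges were -0.031 to 0.071 for Slc25a39, -0.052 to 0.16 for Slc25a10, -0.049 to 0.11 for Slc25a13, -0.00055 to 0.22 for Slc25a17, -0.047 to 0.14 for Slc25a37, -0.17 to 0.028 for Slc25a4, -0.12 to 0.025 for Slc25a14 and -0.12 to 0.0064 for Slc25a36. Depth limits the 7 members below the filter, which had at most 37 reads in a library.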
